A study of Mus musculus with 29 samples.

Results

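The 44 genes examined here encode the machinery and the classical marks of the cell division cycle, and they were taken by name from a table of 29955 genes measured in mouse ventricle. They were chosen by role: 2 marks of dividing cells, 7 genes of origin licensing and the MCM helicase, 4 of nucleotide supply and the replication clamp, 5 G1 cyclins and E2F genes, 7 mitotic cyclins and kinases, 7 genes of the centromere, spindle checkpoint and chromosomal passenger complex, 6 of the spindle and cytokinesis, 3 around the anaphase-promoting complex and SCF, and 3 inhibitors of cyclin-dependent kinases (CDKs). All 44 were found in the table.

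The study followed C57BL6 mice through heart failure (HF) and recovery. Mice that were 3 months old at the start drank water with 0.3 mg/ml L-NAME, an inhibitor of nitric oxide synthases, and 1% NaCl for 5 weeks. An osmotic pump placed after the first week delivered angiotensin II, a pressor hormone, at 0.7 mg/kg/day. All agents were then withdrawn and the hearts were followed to week 19. RNA was sequenced from the induction phase (HF week 3, n = 2; HF week 5, n = 3), from recovery (Recovery week 7, n = 2; week 9, n = 2; week 11, n = 3; week 13, n = 2; week 19, n = 5) and from control animals of the age of the last group (Control week 19, n = 5). Another 4 samples are labelled as week 5 controls, and they are not analysed here because 5 columns of the table point to their label. The labels name no transgene or deletion, and no allele is shared by the groups beyond the strain. The HF libraries were compared with Control week 19, whose animals were 14 weeks further along than those of HF week 5, so that HF and age cannot be told apart in the comparisons made here. The libraries of a group are numbered in the order of the table, and the numbers only name them. Since the labels do not tie a library to one animal, p-values measure the spread between these libraries.

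A cell that divides passes through G1, copies its genome in S phase and separates the copies in mitosis. D and E cyclins drive the passage through G1 by releasing E2F factors from RB proteins, the MCM helicase is loaded on replication origins and opens the DNA, and B cyclins with Cdk1 start mitosis, which the anaphase-promoting complex ends by marking cyclins and securin for destruction. Most cardiomyocytes of the adult mouse have left this cycle, while fibroblasts, endothelial cells and leukocytes of the heart can still enter it. In a homogenate of the ventricle the RNA of all these cells is mixed, and fewer cells of a type cannot be told apart from less RNA per cell.

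Promoters of 5 of these genes are printed here, because the genes were among those with the largest called rises in HF and because the promoters of S phase and mitotic genes are known for a few short motifs. Each line gives 250 bases upstream of a RefSeq transcription start in GRCm38.p6, read 5′ to 3′ along the gene. Capitals mark TTTGAA (the cell cycle homology region, CHR), CCAAT (the box bound by NF-Y) and the E2F strings TTTGGCGC, TTTCGCGC and TTTCCCGC, each searched on both strands.
Cdk1 at chr10:69352913-69353162, minus strand: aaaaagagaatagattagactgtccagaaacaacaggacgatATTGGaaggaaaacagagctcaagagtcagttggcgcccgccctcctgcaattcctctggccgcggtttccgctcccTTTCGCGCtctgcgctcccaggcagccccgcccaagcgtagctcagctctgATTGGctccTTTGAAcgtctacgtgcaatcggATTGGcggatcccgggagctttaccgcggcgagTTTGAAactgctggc
Cdca8 at chr4:124936918-124937167, minus strand: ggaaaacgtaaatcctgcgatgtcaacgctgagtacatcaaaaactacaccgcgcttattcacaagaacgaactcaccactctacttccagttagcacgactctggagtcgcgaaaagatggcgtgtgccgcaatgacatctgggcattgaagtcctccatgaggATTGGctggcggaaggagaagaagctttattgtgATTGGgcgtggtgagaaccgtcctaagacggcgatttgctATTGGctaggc
Mcm6 at chr1:128359706-128359955, minus strand: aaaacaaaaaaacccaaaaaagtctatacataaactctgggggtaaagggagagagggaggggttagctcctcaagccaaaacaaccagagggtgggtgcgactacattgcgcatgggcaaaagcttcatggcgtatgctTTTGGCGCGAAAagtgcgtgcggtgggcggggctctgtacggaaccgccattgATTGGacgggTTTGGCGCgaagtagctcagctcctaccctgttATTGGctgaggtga
Mcm7 at chr5:138171884-138172133, minus strand: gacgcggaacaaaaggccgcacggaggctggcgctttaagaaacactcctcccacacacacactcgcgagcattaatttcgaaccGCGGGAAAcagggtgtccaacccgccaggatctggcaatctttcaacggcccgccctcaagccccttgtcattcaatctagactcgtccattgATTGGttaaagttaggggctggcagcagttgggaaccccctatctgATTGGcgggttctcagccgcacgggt
Cdkn1a at chr17:29093519-29093768, plus strand: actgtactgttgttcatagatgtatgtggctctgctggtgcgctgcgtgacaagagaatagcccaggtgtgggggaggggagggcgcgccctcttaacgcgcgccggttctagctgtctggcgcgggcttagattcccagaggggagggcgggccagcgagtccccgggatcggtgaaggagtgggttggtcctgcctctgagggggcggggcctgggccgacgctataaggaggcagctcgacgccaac

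The Cdk1 window held 2 CHR strings that began 71 and 15 bases before the start, 3 CCAAT boxes and 1 E2F string. The Cdca8 window held 3 CCAAT boxes that began 85, 51 and 11 bases before the start, and a CHR string after the start. In Mcm6 the E2F strings that began 110 and 106 bases before the start overlapped on opposite strands, another began 47 bases before it, and 2 CCAAT boxes began 57 and 14 bases before it. The bases just after the RefSeq start were found in a GENCODE transcript of the same gene for the other windows printed, but not for Mcm6. The Mcm7 window held 1 E2F string and 2 CCAAT boxes, and RefSeq also lists a second Mcm7 start whose window had 1 CCAAT box. The Cdkn1a window, 1 of 2 listed for that gene, held none of these letters in its upstream 250 bases.

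RefSeq windows of 300 bases (250 before to 50 after a start) matched 35 of the 44 genes, in 39 windows. A CHR string together with a CCAAT box stood in 46.2% of these windows and in 6.95% of all 32851 windows. CHR alone was found in 46.2% against 17.9%, CCAAT in 76.9% against 37.4%, and an E2F string in 17.9% against 1.84%. By role, CHR with CCAAT occurred in both marks of dividing cells, in 4 of 5 mitotic cyclin and kinase genes, in 4 of 7 centromere and passenger genes and in all 3 genes around the anaphase-promoting complex. It also occurred in 3 of 4 spindle and cytokinesis genes and in 1 of 6 licensing genes. None of the 4 nucleotide supply genes or the 2 CDK inhibitor genes with a window held both. An E2F string occurred in 5 of 6 licensing genes, 1 of 5 mitotic cyclin and kinase genes and 1 of 2 CDK inhibitor genes. These shares describe letters in the windows, and the 2 G1 and E2F genes with a window (Ccne1 and E2f1) had none of them.

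Levels are given as FPKM, fragments per kilobase of transcript scaled by the fragments mapped in the library, which is a level per length and can be compared between genes. Across the 24 libraries 5 of the 44 genes averaged at least 10 FPKM, namely Cdkn1a, Pcna, Cdkn1c, Ccnd1 and Cenpa. Another 14 averaged 1 to 10 FPKM, 12 averaged 0.5 to 1 FPKM and 13 lay under 0.5 FPKM. The genes with the highest levels were thus 2 CDK inhibitors, the replication clamp, a G1 cyclin and the centromeric histone. Mki67, the gene of the proliferation antigen Ki-67, averaged 0.249 FPKM, and the mitotic kinesin gene Cenpe averaged 0.0362 FPKM, the lowest of the 44. Of the 44 genes, 12 stayed below 1 FPKM in all 24 libraries. A mean of at least 0.5 FPKM was required for testing, which 31 of the 44 passed. The 13 that did not (Ccnb1, Kif23, Nusap1, Tpx2, Bub1b, Aurkb, Mki67, Kif20a, Kif11, Cdc6, Ccne2, Bub1 and Cenpe) are given by their values.

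The depth of the libraries is known only in relative terms. The steps between low FPKM values placed 23 libraries at 0.728 to 1.40 times the depth of Control library 1, and gave no value for HF week 3 library 1. That library stood apart, with values above 0 for 12816 genes, where the other 23 had them for 16339 to 18091, and 13 of the 44 genes were listed at 0 in it. In all other libraries only Ccne2 (HF week 5 library 2) and Bub1 (Recovery week 19 library 2) were listed at 0. The 10 most abundant genes took 27.9 to 37.4% of the FPKM in Recovery weeks 7 to 13, 19.8 and 37.5% in the 2 HF week 3 libraries and 14.6 to 18.8% in the weeks 5 and 19 libraries. The 11 cardiomyocyte markers summed to 26520 to 32880 FPKM in the controls, 35960 to 75220 FPKM at HF week 5, 52270 to 83450 FPKM at Recovery week 19, 157600 to 402600 FPKM in Recovery weeks 7 to 13, and 74720 and 346000 FPKM at HF week 3. These sums moved with genes listed at 0, since Myh6 was at 0 in every library of Control week 19, HF week 5 and Recovery week 19, and Actc1 and Myl2 were at 0 in every control. The 8 cardiomyocyte markers above 0 everywhere summed to 21590 to 35220 FPKM over all groups. Without the 14 genes that were at 0 in some library and above 1000 FPKM in another, the 10 most abundant took 11.6 to 16.5% in all 24 libraries. Atrial markers, though the tissue was labelled as ventricle, summed to 81730 FPKM in HF week 5 library 1, 2515 and 2229 FPKM in the other two HF week 5 libraries, 7737 and 14050 FPKM at HF week 3 (where Nppa and Bmp10 were listed at 0), and 89.6 to 349 FPKM in the controls.

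**Figure D1:**
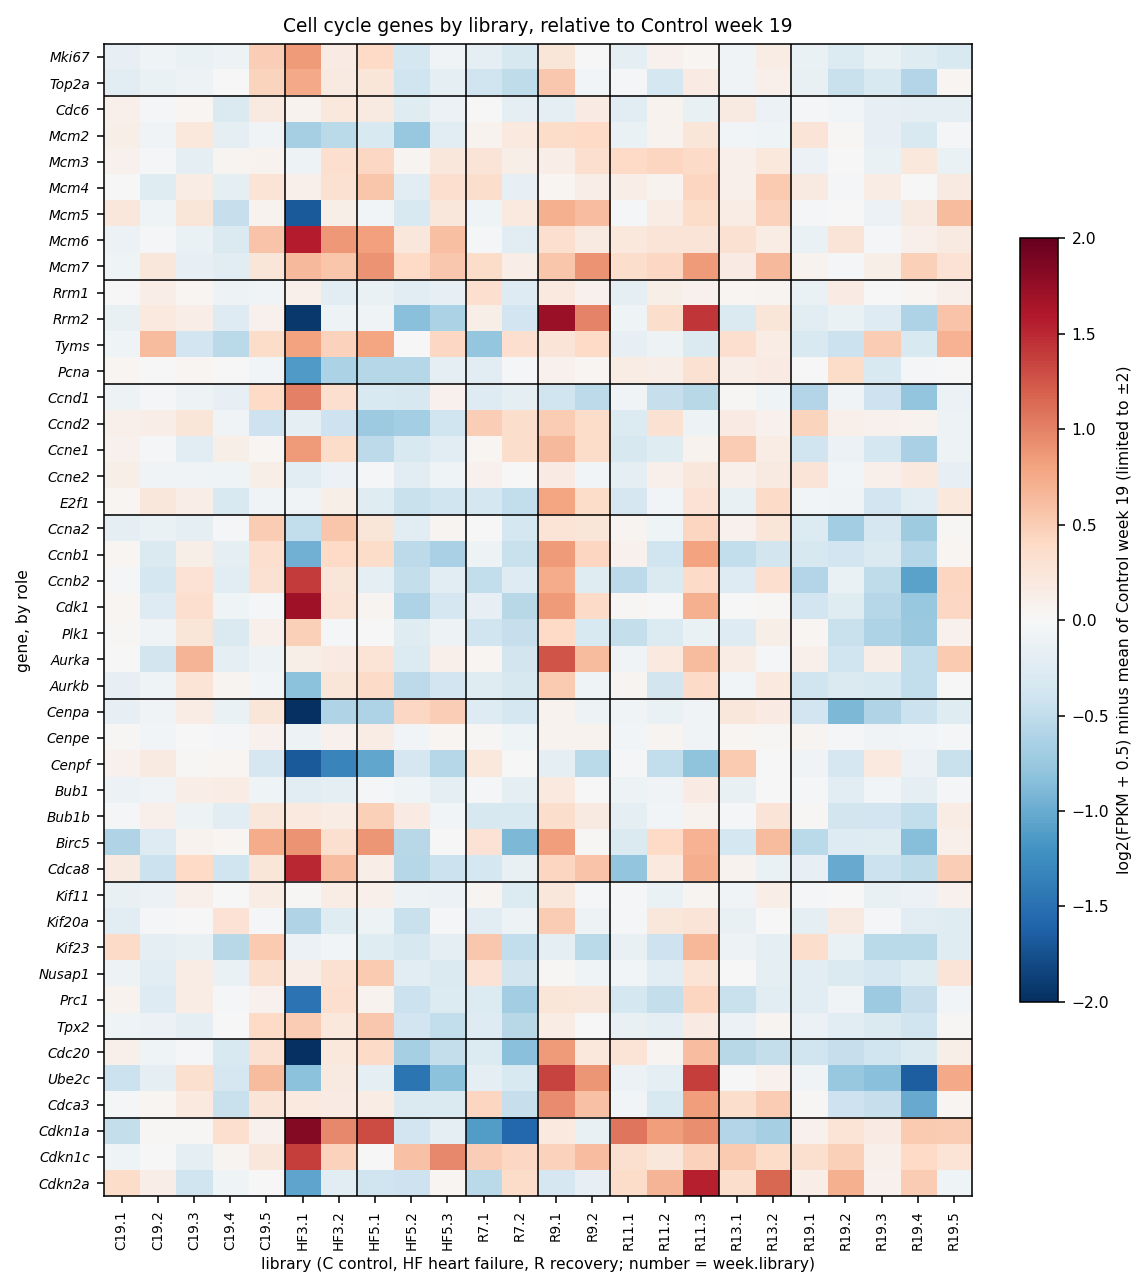
Each cell of the heat map is the log2(FPKM + 0.5) of 1 gene (rows, grouped by role) in 1 of 24 libraries (columns, grouped by week), minus the mean of the 5 Control week 19 libraries, with colours limited to ±2. HF week 3 library 1 holds dark rises (Cdkn1a, Mcm6, Cdk1) beside the deepest falls, where genes are listed at 0, and within several groups 1 column is redder than the others over many rows.

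The first comparison asked how the cell cycle genes stood at the end of HF induction. Relative to Control week 19, 7 of the 31 tested genes passed an adjusted p of 0.05 at HF week 5 (22.6%), against a background of 24% of all 12759 genes tested. The helicase genes Mcm6 and Mcm7 and the CDK inhibitor Cdkn1c were higher. The clamp Pcna, the helicase gene Mcm2, the D cyclin Ccnd2 and the kinetochore gene Cenpf were lower. The split of 3 higher and 4 lower became 1 and 4 with median centring, which lost Mcm6 and Cdkn1c, and 2 and 4 with quantile normalization. The median log2 fold change was -0.17 over the 31 genes and 0.04 over all genes tested. None of the 5 mitotic cyclins and kinases tested, the 3 genes around the anaphase-promoting complex, Top2a or Prc1 was called in this comparison.

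The Mcm2 to Mcm7 proteins form one ring in equal numbers, yet their transcripts did not share a direction at HF week 5. Mcm7 measured 8.02, 5.50 and 6.10 FPKM in the HF week 5 libraries and 3.78, 4.83, 3.56, 3.44 and 4.92 FPKM in the controls. Every HF week 5 library was above every control, and the log2 fold change was 0.61 ± 0.17 SE with an adjusted p of 0.0124. Mcm7 shares 10.8% of its exon bases with Ap4m1 on the opposite strand and 2.16% with Cops6, which averaged 152.7 FPKM, and strand use is not given in the sources used here.

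Mcm6 measured 5.37, 3.37 and 4.53 FPKM at HF week 5 and 2.54, 2.73, 2.51, 2.22 and 4.42 FPKM in the controls. The groups overlapped only through Control library 5, and the log2 fold change was 0.55 ± 0.18 SE with an adjusted p of 0.0329. Mcm2 went the other way, with 1.73, 1.12 and 1.85 FPKM at HF week 5 and 2.46, 2.105, 2.67, 1.93 and 2.11 FPKM in the controls, which did not overlap. Its log2 fold change was -0.43 ± 0.14 SE with an adjusted p of 0.0375. The other ring genes were not called. Mcm3 measured 2.27 to 3.06 FPKM against 1.82 to 2.34 FPKM in the controls, Mcm4 1.05 to 2.14 against 1.02 to 1.67 FPKM, and Mcm5 0.799 to 1.36 against 0.667 to 1.39 FPKM. Cdc6, which loads the ring on origins, measured 0.067 to 0.26 FPKM against 0.0473 to 0.263 FPKM and was not tested.

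Pcna encodes the sliding clamp that holds DNA polymerases on the template and also serves in repair. Its controls were close together at 31.1, 30.2, 31.1, 30.02 and 29.1 FPKM, and the HF week 5 libraries measured 20.2, 20.2 and 26.5 FPKM. All 3 HF week 5 libraries were below all controls, with a log2 fold change of -0.45 ± 0.13 SE with an adjusted p of 0.019. The nucleotide supply genes were not called at HF week 5. Rrm1, the large subunit of ribonucleotide reductase, measured 1.90 to 2.02 FPKM against 2.08 to 2.53 FPKM, Rrm2, its small subunit of S phase, 0.569 to 1.32 against 1.10 to 1.70 FPKM, and Tyms, thymidylate synthase, 0.905 to 1.93 against 0.464 to 1.67 FPKM.

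Among the G1 genes, Ccnd2 (cyclin D2) had the smallest p of the 31. It measured 4.37, 4.48 and 5.59 FPKM at HF week 5 and 8.14, 8.28, 9.001, 7.14 and 5.51 FPKM in the controls. The groups overlapped only between HF library 3 and Control library 5, and the log2 fold change was -0.60 ± 0.15 SE with an adjusted p of 0.00871. Ccnd1 (cyclin D1), at 18.9, 18.6 and 24.8 FPKM against 20.9 to 31.0 FPKM in the controls, was not called. Ccne1 (cyclin E1) measured 0.392, 0.531 and 0.597 FPKM, each below every control at 0.601 to 0.883 FPKM, but did not pass (log2 fold change -0.35 ± 0.17 SE with an adjusted p of 0.14). E2f1, a transcription factor of S phase genes, measured 0.566 to 0.718 against 0.668 to 1.19 FPKM and was not called, and Ccne2 did not exceed 0.205 FPKM in any library.

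Cenpf, a large kinetochore protein gene, measured 0.279, 0.767 and 0.578 FPKM at HF week 5 and 1.20, 1.31, 1.13, 1.15 and 0.766 FPKM in the controls, with a log2 fold change of -0.65 ± 0.21 SE with an adjusted p of 0.0304. HF library 2 and Control library 5 overlapped. Cdkn1c (p57), an inhibitor of G1 CDKs that is expressed from the maternal allele, measured 18.97, 28.6 and 37.0 FPKM against 17.8, 18.7, 16.4, 19.6 and 22.1 FPKM, with a log2 fold change of 0.52 ± 0.19 SE with an adjusted p of 0.0482. HF library 1 lay within the range of the controls. Cdkn1c shares 30.3% of its exon bases with the antisense gene Gm44732. Cdkn1a (p21), the p53 target that stops the cycle in G1, measured 76.8, 23.6 and 27.2 FPKM, where only library 1 was above the controls at 22.1 to 39.2 FPKM, and was not called.

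HF week 5 library 1 was the highest of its group for 32 of the 44 genes and library 2 the lowest for 32. Library 1 was also the one with the highest atrial marker sum, and its leukocyte and fibroblast marker sums were 772 and 913 FPKM, against 355 and 442 FPKM in library 2 and 521 and 732 FPKM in library 3. In the controls these sums ran from 278 to 507 FPKM and from 325 to 468 FPKM. At HF week 5, 2 of 15 tested leukocyte markers, 7 of 10 fibroblast markers, 5 of 10 endothelial markers and 4 of 4 atrial markers were called higher than in Control week 19, where 24% of all genes were called in either direction, and none of these lists had a marker called lower. The leukocyte share of 13.3% lay below that of all genes. Of 9 smooth muscle and pericyte markers 5 were called higher and 1 lower (Abcc9), of 11 cardiomyocyte markers 3 were higher (Myh7, and Actc1 and Myl2, which the controls list at 0) and 1 lower (Pln), and none of 3 erythroid markers was called by limma (1 at an unadjusted 0.05). What part these cells have in the values of the cell cycle genes was not tested. Without HF week 5 library 1, 1 of the 7 calls remained (Cdkn1c, whose log2 fold change was then 0.77). The fold changes without it kept their direction, at -0.54 for Ccnd2, 0.46 for Mcm7, -0.38 for Pcna, -0.45 for Cenpf, 0.41 for Mcm6 and -0.49 for Mcm2. Leaving out HF week 5 library 2 or 3 left 4 genes called, leaving out Control library 1, 2 or 3 left 3, and leaving out Control library 4 left 4.

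**Figure D2:**
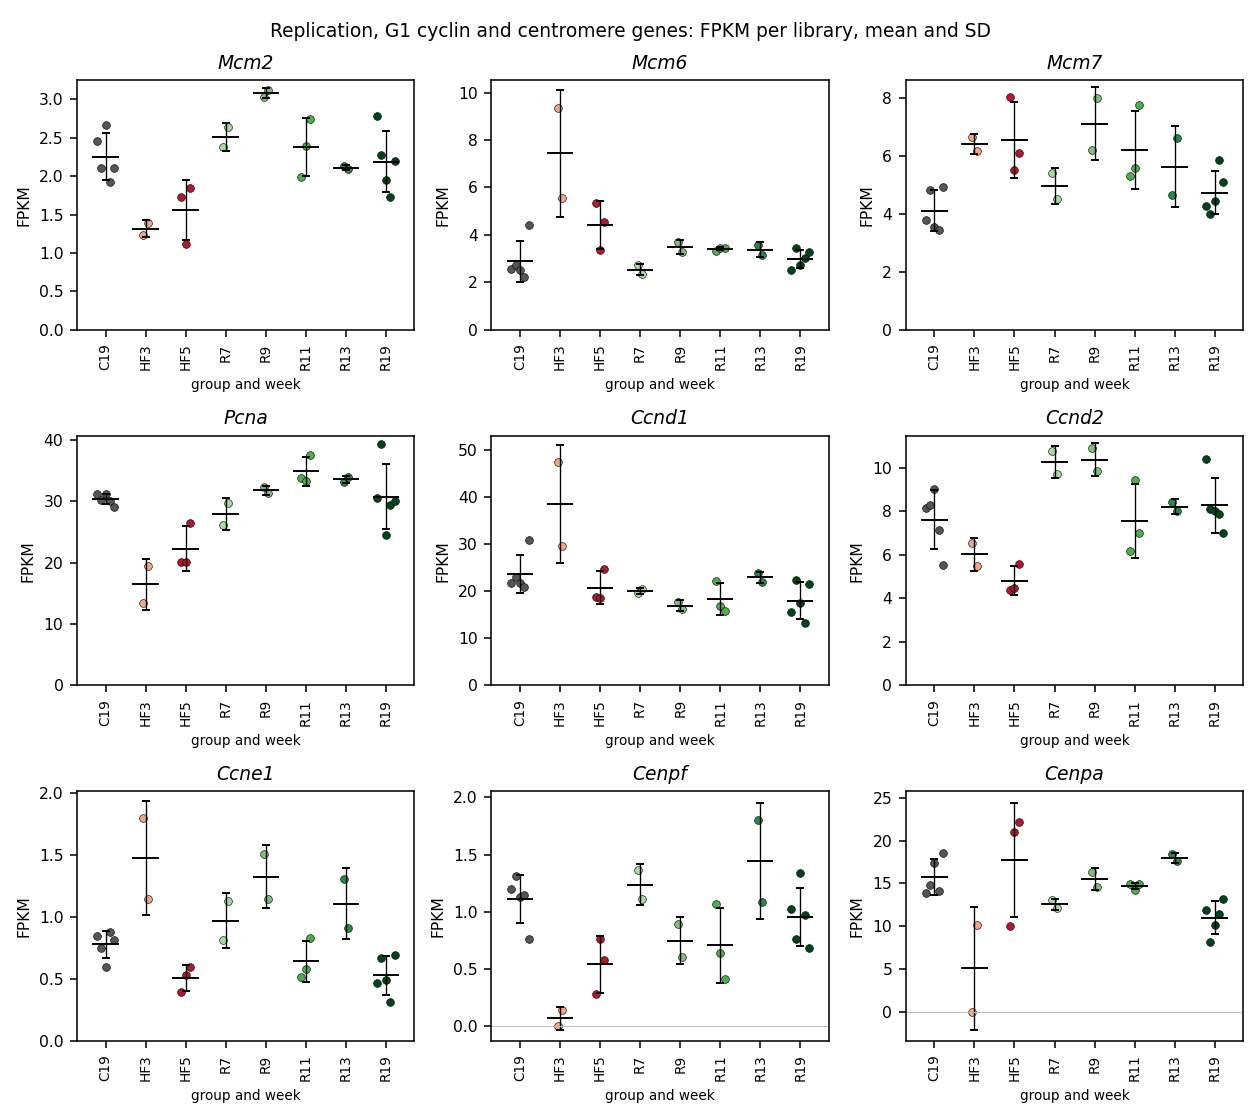
Each point is the FPKM of 1 library for 9 genes of replication, G1 and the centromere, by group and week (C control, HF heart failure, R recovery), with the group mean as a line and the SD as a bar (2 to 5 libraries a group). Pcna, Mcm2 and Ccnd2 are lowest in HF, Mcm6 and Mcm7 are above most controls there, and Cenpa and Cenpf reach 0 in 1 HF week 3 library.

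The genes by which dividing cells are usually counted were low in every group. Mki67 measured 0.159, 0.198, 0.175, 0.191 and 0.541 FPKM in the controls, 0.837 and 0.331 FPKM at HF week 3 and 0.472, 0.0829 and 0.208 FPKM at HF week 5. Both HF week 3 libraries were above 4 of the 5 controls, while the HF week 5 libraries lay on both sides of them. At Recovery week 19 Mki67 measured 0.173, 0.116, 0.178, 0.126 and 0.0978 FPKM, within or below the range of the controls. Top2a, the topoisomerase that untangles sister chromatids, measured 0.405, 0.461, 0.478, 0.553 and 0.927 FPKM in the controls, 1.28 and 0.689 FPKM at HF week 3, 0.738, 0.301 and 0.416 FPKM at HF week 5 and 0.196 to 0.581 FPKM at Recovery week 19. It was called in none of the 7 comparisons.

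The same spread between libraries of a group ran through the mitotic genes. Ccnb1 (cyclin B1) measured 0.758, 0.177 and 0.123 FPKM at HF week 5, Tpx2, which nucleates the spindle, 0.804, 0.196 and 0.144 FPKM, and Aurkb, the kinase of the passenger complex, 0.653, 0.112 and 0.179 FPKM. In each of these 3 genes library 1 was the highest. Birc5 (survivin), a passenger protein gene, measured 2.98, 0.788 and 1.40 FPKM at HF week 5 and 0.742 to 2.65 FPKM in the controls, and was not called. Among 5 libraries, where an even split is 8.8 of the 44 genes each, Control library 5 was the highest for 22 and Recovery week 19 library 5 for 25. Among 3, where it is 14.7, Recovery week 11 library 3 was the highest for 33. Among 2, where it is 22, Recovery week 7 library 1 was the higher for 33, Recovery week 9 library 1 for 34, Recovery week 13 library 2 for 28 and HF week 3 library 2 for 25. The last of these was close to even, and the counts are a description. Control library 5 and Recovery week 19 library 5 had the largest total FPKM of their groups (900360 and 1011547), as did Recovery week 11 library 3 and HF week 3 library 2. HF week 5 library 1, Recovery week 7 library 1, week 9 library 1 and week 13 library 2 had the lowest. For how many of all genes each library was the highest was not counted.

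The mitotic genes that were tested overlapped the controls at HF week 5. Ccna2 (cyclin A2), which acts in S phase and early mitosis, measured 1.99, 1.29 and 1.69 FPKM against 1.36 to 2.49 FPKM in the controls, Ccnb2 (cyclin B2) 0.657, 0.443 and 0.63 against 0.519 to 1.12 FPKM, and Cdk1 0.598, 0.183 and 0.332 against 0.384 to 0.831 FPKM. The kinase genes Plk1 and Aurka, which act on centrosomes and the spindle, measured 0.449 to 0.616 against 0.414 to 0.821 FPKM and 0.478 to 0.923 against 0.419 to 1.39 FPKM. Prc1, which bundles midzone microtubules, measured 0.533 to 0.971 against 0.662 to 1.04 FPKM and shares 21.8% of its exon bases with Rccd1 on the opposite strand. Cdc20 measured 2.65, 1.03 and 1.23 against 1.46 to 2.47 FPKM, Ube2c 3.02, 0.975 and 1.78 against 2.52 to 5.76 FPKM and Cdca3, a part of an SCF ligase that acts before mitosis, 1.01, 0.616 and 0.616 against 0.495 to 1.12 FPKM. Cenpa, high among these genes, measured 10.1, 21.0 and 22.1 against 13.9 to 18.5 FPKM, and here HF library 1 was the lowest.

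Other genes under the filter varied in the same low range. Over all groups Kif11 and Kif20a, motors of the spindle and of the dividing cell's midzone, ranged from 0.0662 to 0.299 FPKM and from 0 to 0.581 FPKM, and Kif20a shares 31.8% of its exon bases with Cdc23 on the opposite strand. Kif23, a midzone motor, ranged from 0.145 to 0.998 FPKM and Nusap1, a spindle microtubule protein gene, from 0.194 to 0.786 FPKM. The checkpoint genes Bub1 and Bub1b ranged from 0 to 0.174 FPKM and from 0.11 to 0.691 FPKM. When genes were tested with no filter on level, none of the 13 low genes was called in any of the 7 comparisons, and the smallest unadjusted p among them was 0.0125 (Bub1b, Recovery week 19 against HF week 5). In that fit 3 of them passed an unadjusted 0.05 at HF week 3 against control. The shares of all genes that were called or passed an unadjusted 0.05 in it were not counted.

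**Figure D3:**
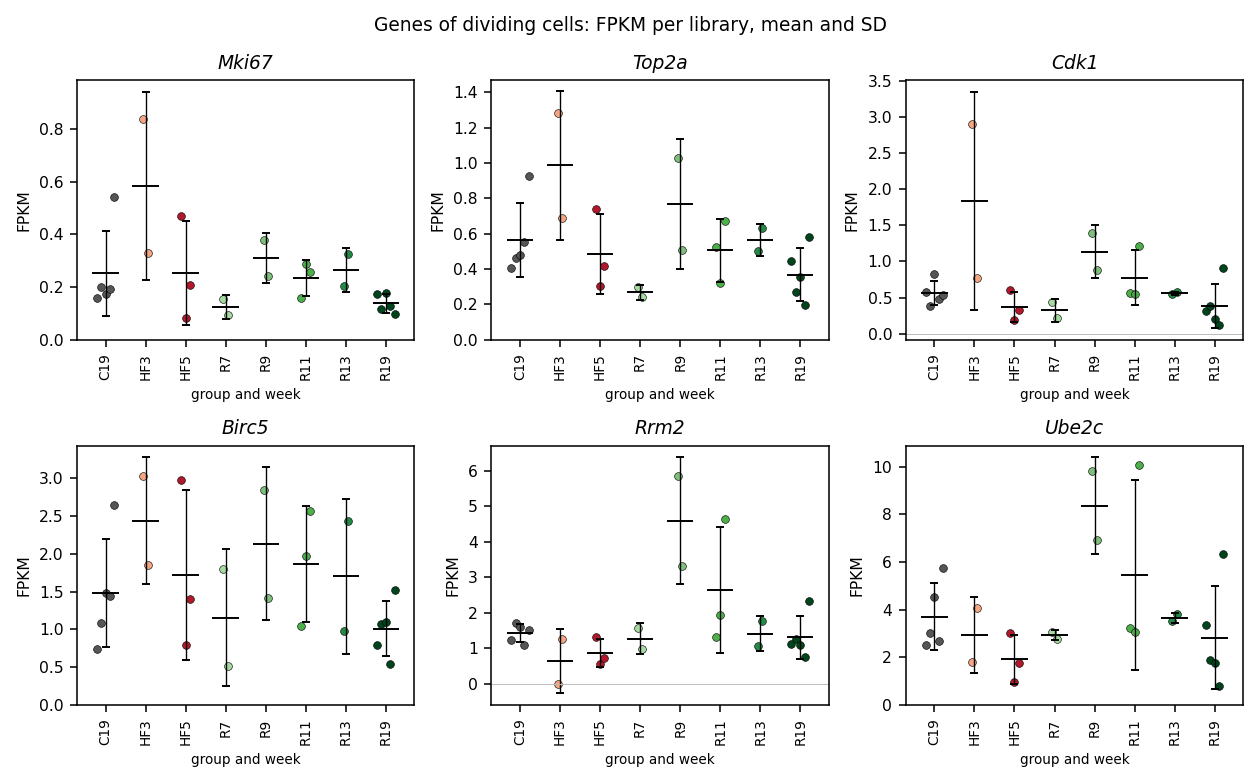
Points show the FPKM of 6 genes of dividing cells in each library, by group and week, with the mean and SD of each group. The levels run from below 1 FPKM (Mki67, most of Top2a and Cdk1) to about 10.1 FPKM (Ube2c), and single libraries of Recovery weeks 9 and 11 stand above the rest for Rrm2 and Ube2c.

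The next comparison set the middle of induction against the same controls. At HF week 3, 14 of the 31 genes were called against Control week 19 (45.2%), 8 higher and 6 lower, beside 50.7% of all genes tested (8 and 4 with quantile normalization). The median log2 fold change was 0.14 over the 31 genes and -0.05 over all genes. HF week 3 had 2 libraries, and library 1 is the one that stood apart. Without it 3 of the 14 calls remained (Mcm6, Pcna and Cenpf), and without library 2 the count was 19. With 1 library left, the test assumes that HF week 3 varied like the other groups. Of the cell type markers, 7 of 10 fibroblast markers were called higher than in Control week 19, as were 7 of 10 endothelial, 4 of 15 leukocyte, 4 of 9 smooth muscle and pericyte, 3 of 11 cardiomyocyte and 3 of 4 atrial markers. Called lower were 1 endothelial, 1 leukocyte, 1 smooth muscle and pericyte (Abcc9), 4 cardiomyocyte (Tnnt2, Actn2, Ryr2 and Pln) and 1 atrial marker (Nppa, listed at 0 in both HF week 3 libraries). The 3 cardiomyocyte markers called higher were those at 0 in every control. The fibroblast marker sums were 819 and 886 FPKM and the leukocyte sums 609 and 658 FPKM, all above the controls, and their part in these values was not tested.

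The 3 calls that held with either library left out belong to replication and the kinetochore. Without library 1 they rest on library 2, in which the 10 most abundant genes took 37.5% of the FPKM. Mcm6 measured 9.33 and 5.54 FPKM at HF week 3, above all controls, with a log2 fold change of 1.22 ± 0.21 SE with an adjusted p of 0.000111, and 0.87 without library 1. Pcna measured 13.5 and 19.4 FPKM, below all controls, with -0.88 ± 0.15 SE with an adjusted p of 0.000117, and -0.63 without library 1. Cenpf was listed at 0 in library 1 and measured 0.142 FPKM in library 2, below all controls. Its log2 fold change of -1.50 ± 0.24 SE with an adjusted p of 6.48e-05 became -1.32 without library 1.

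Cdkn1a and Cdkn1c, which hold the cycle back, and Ccnd1 and Ccne1, which drive it through G1, were all called higher at HF week 3. Cdkn1a measured 111 and 60.6 FPKM at HF week 3, both above the controls, with a log2 fold change of 1.40 ± 0.32 SE with an adjusted p of 0.00156. Cdkn1c measured 50.1 and 26.2 FPKM (0.93 ± 0.21 SE with an adjusted p of 0.00144). Ccnd1 measured 47.5 and 29.7 FPKM (0.67 ± 0.21 SE with an adjusted p of 0.0115), and Control library 5 lay above its HF library 2. Ccne1 measured 1.80 and 1.15 FPKM (0.61 ± 0.19 SE with an adjusted p of 0.0128). In each of the 4 genes library 1 was the higher, and without it the log2 fold changes were 0.96, 0.47, 0.33 and 0.37, none of them called. Ccnd2 was not called at HF week 3, at 6.55 and 5.49 FPKM.

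Of the replication genes, Mcm7 measured 6.65 and 6.17 FPKM (0.60 ± 0.19 SE with an adjusted p of 0.0135) and Mcm2 1.24 and 1.40 FPKM (-0.60 ± 0.17 SE with an adjusted p of 0.00594). Both libraries of each lay outside the controls. Without library 1 these were 0.55 and -0.53 and no longer called. Cdk1, the mitotic kinase, measured 2.90 and 0.768 FPKM and Cdca8 (borealin), a passenger protein gene, 3.40 and 1.62 FPKM. Both were called higher, at adjusted p of 0.0207 and 0.0257, and neither was called without library 1, where their log2 fold changes were 0.27 and 0.62. Cdca8 also lost its call without Control library 2 or 4, at 0.95 and 0.96.

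The called falls of Cenpa, Cdc20 and Rrm2 at HF week 3 rested on values listed at 0. Cenpa, the centromeric histone gene, was listed at 0 in library 1 and measured 10.1 FPKM in library 2, against 13.9 to 18.5 FPKM in the controls (-2.81 ± 0.63 SE with an adjusted p of 0.00118, and -0.60 without library 1). Cdc20, an activator of the anaphase-promoting complex, was listed at 0 and at 2.30 FPKM, against 1.46 to 2.47 FPKM, and its log2 fold change turned to 0.22 without library 1. Rrm2 was listed at 0 and at 1.28 FPKM, against 1.10 to 1.70 FPKM, with -0.11 without library 1. Cdc20 lost its call without Control library 1, 2, 3 or 5, at -1.001, -1.05, -1.03 and -0.95, and Rrm2 without any 1 of the 5 controls, at -1.09 to -0.97.

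**Figure D4:**
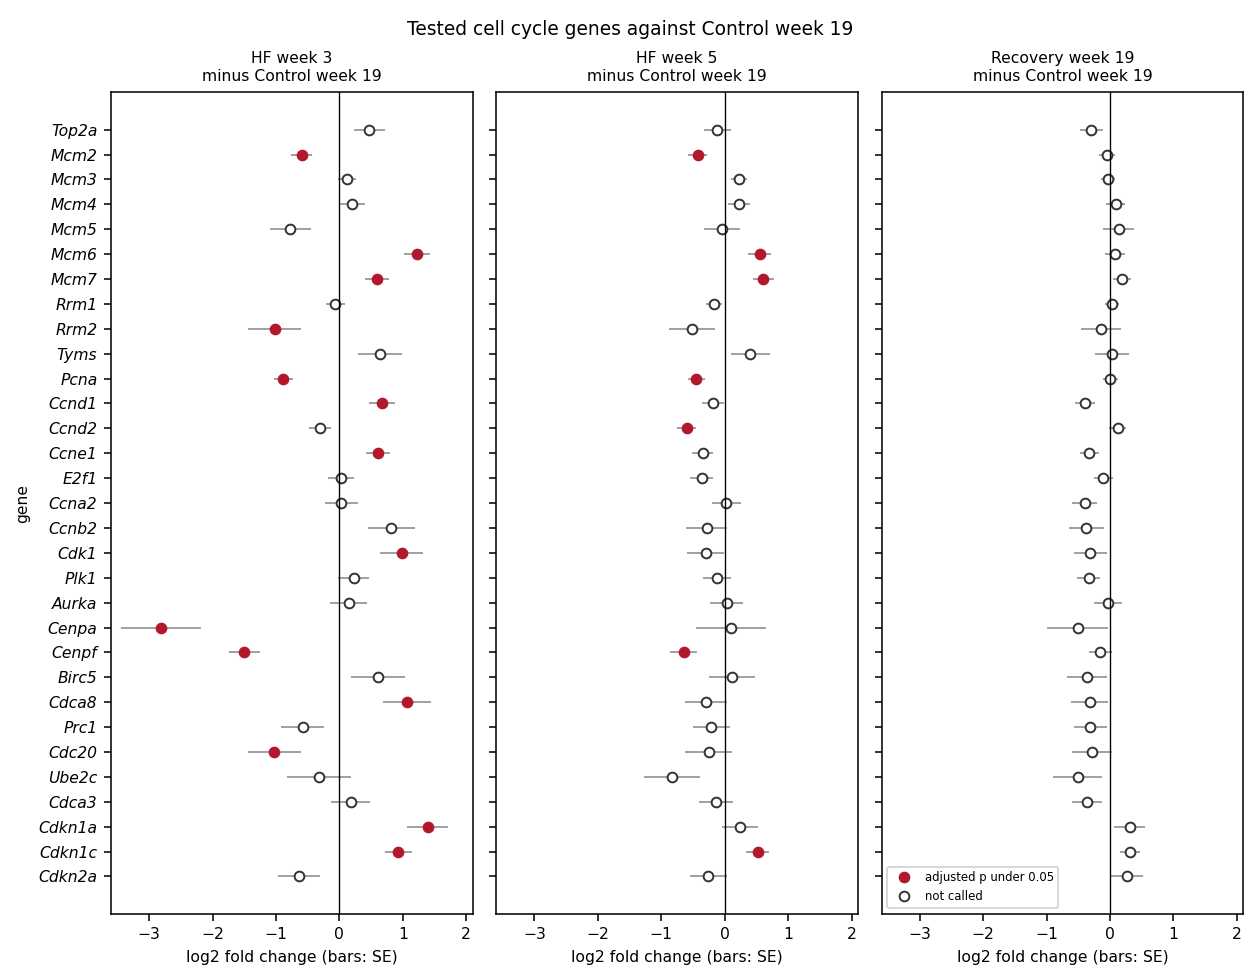
The log2 fold change (points) and its SE (bars) of the 31 tested genes is shown against the same 5 Control week 19 libraries for HF week 3, HF week 5 and Recovery week 19, with filled points where the adjusted p was under 0.05. There are 14 filled points at HF week 3, 7 at HF week 5 and 0 at Recovery week 19.

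The change within induction was tested directly. Between HF week 3 and HF week 5, 8 of the 31 genes were called (25.8%), 2 higher and 6 lower at week 5, against 21.4% of all genes tested. Ccne1 fell from 1.80 and 1.15 FPKM to 0.392, 0.531 and 0.597 FPKM (-0.96 ± 0.21 SE with an adjusted p of 0.00735), Cdk1 from 2.90 and 0.768 FPKM to 0.598, 0.183 and 0.332 FPKM (-1.28 ± 0.37 SE with an adjusted p of 0.0236), and Ccnd1 from 47.5 and 29.7 FPKM to 18.9, 18.6 and 24.8 FPKM (-0.85 ± 0.23 SE with an adjusted p of 0.0173). In these 3 genes the weeks did not overlap, nor did they in Cdca8, Mcm6 and Cenpf, which were also called. Of the tested genes that were not called, Pcna, E2f1, Ccnb2 and Cdca3 had no overlap either. The share of all genes without overlap was not counted. Cdca8 (-1.35 ± 0.41), Cdkn1a (-1.15 ± 0.35) and Mcm6 (-0.67 ± 0.23) were lower at week 5, and Cenpa (2.91 ± 0.68) and Cenpf (0.85 ± 0.26) higher, with SE and adjusted p from 0.0109 to 0.0422. A fit of only these 2 groups called none of the 31 (adjusted p of 0.533 for each of the 8). Of the cell type markers, 5 of 10 fibroblast, 1 of 10 endothelial, 2 of 9 smooth muscle and pericyte and 1 of 11 cardiomyocyte markers (Myh6, at 0 in every HF week 5 library) were called lower at week 5. Called higher were 4 cardiomyocyte markers (Tnnt2, Ryr2, Pln and Actc1), 1 smooth muscle and pericyte marker (Abcc9) and 1 of 4 atrial markers (Nppa, at 0 in both HF week 3 libraries), and their part in these values was not tested. Without HF week 3 library 1 none of the 31 was called and the 8 kept their direction, with log2 fold changes from -0.91 (Cdca8) to 0.70 (Cenpa). Without HF week 3 library 2 there were 16, without HF week 5 library 2 there were 2, and without HF week 5 library 3 there were 3.

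After withdrawal of the agents, 7 of the 31 genes were called between HF week 5 and the mean of Recovery weeks 7, 9, 11 and 13 (22.6%), all of them higher in recovery, against 22.1% of all genes tested. The median log2 fold change was 0.22 over the 31 genes and -0.04 over all genes. Ccnd2 rose from 4.37, 4.48 and 5.59 FPKM to 10.8 and 9.73 FPKM (week 7), 10.9 and 9.83 (week 9), 6.17, 9.44 and 7.01 (week 11) and 8.44 and 7.99 (week 13). All 9 recovery libraries were above all HF week 5 libraries (0.84 ± 0.14 SE with an adjusted p of 0.00051). Pcna measured 26.1 and 29.8 FPKM (week 7) and 31.3 to 37.6 FPKM in the 7 libraries of weeks 9 to 13, of which all were above HF week 5 (0.52 ± 0.12 SE with an adjusted p of 0.00495). In the same comparison 6 of 10 endothelial, 3 of 10 fibroblast, 4 of 9 smooth muscle and pericyte and 4 of 4 atrial markers were called lower in recovery, as was 1 of 11 cardiomyocyte markers (Myh7), while 3 cardiomyocyte markers (Pln, Actc1 and Myh6, the last at 0 in every HF week 5 library) and 1 smooth muscle and pericyte marker (Abcc9) were higher. No leukocyte or erythroid marker was called by limma, and 2 of 15 and 1 of 3 passed an unadjusted 0.05. What part these cells have in the values was not tested.

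Mcm2 measured 2.38 and 2.64 FPKM (week 7), 3.03 and 3.13 (week 9), 1.99, 2.39 and 2.74 (week 11) and 2.13 and 2.09 (week 13), all above HF week 5 (0.55 ± 0.13 SE with an adjusted p of 0.00584). Ccne1 measured 0.518 to 1.51 FPKM in these 9 libraries (0.56 ± 0.15 SE with an adjusted p of 0.0129), of which week 11 libraries 1 and 2 lay within the range of HF week 5. Cenpf measured 0.413 to 1.80 FPKM (0.54 ± 0.19 SE with an adjusted p of 0.0498), and week 9 library 2 and week 11 libraries 2 and 3 lay within the range of HF week 5. Rrm2 measured 1.58 and 0.97 FPKM (week 7), 5.86 and 3.33 (week 9), 1.31, 1.95 and 4.66 (week 11) and 1.07 and 1.76 (week 13), and differed from HF week 5 by 0.96 ± 0.33 SE with an adjusted p of 0.0456. Ube2c, the ubiquitin-conjugating enzyme of the anaphase-promoting complex, measured 3.07 and 2.78 FPKM (week 7), 9.80 and 6.92 (week 9), 3.24, 3.06 and 10.1 (week 11) and 3.52 and 3.81 (week 13), and differed by 1.15 ± 0.41 SE with an adjusted p of 0.0492. Their 3 highest values were in week 9 and in week 11 library 3, and in Rrm2 week 7 library 2, week 11 library 1 and week 13 library 1 lay within the range of HF week 5 (0.569 to 1.32 FPKM), as did week 7 library 2 in Ube2c (0.975 to 3.02 FPKM). Ube2c shares 22.8% of its exon bases with Tnnc2 on the opposite strand, which averaged 0.596 FPKM.

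The calls of Ccnd2 and Pcna held whichever library was left out. That of Mcm2 was lost without HF week 5 library 2 (0.39) and that of Ccne1 without HF week 5 library 1 (0.48). Rrm2 lost its call without any of HF week 5 libraries 1, 2 and 3, week 7 library 1, week 9 library 1, week 11 library 3 and week 13 library 2 (0.80 to 1.18), Cenpf without any of HF week 5 libraries 1 and 3, week 7 libraries 1 and 2, week 9 library 1, week 11 libraries 1 and 2 and week 13 library 1 (0.34 to 0.58) and Ube2c without any of HF week 5 libraries 1, 2 and 3, both libraries of weeks 7, 9 and 13, and week 11 library 3 (0.83 to 1.46). The count was 3 without HF week 5 library 1, and 4 without HF week 5 library 3, week 7 library 1 or week 9 library 1.

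Against Control week 19, none of the 31 genes was called in Recovery weeks 7 to 13 by limma, and 3 passed an unadjusted 0.05 (Mcm7, Cdkn1c and Mcm3). Of all genes tested, 0.0705% were called and 6.9% passed an unadjusted 0.05. Mcm7 measured 4.53 to 7.99 FPKM in these 9 libraries against 3.44 to 4.92 FPKM in the controls (0.48 ± 0.13 SE with an adjusted p of 0.298), and Cdkn1c 22.1 to 29.2 FPKM against 16.4 to 22.1 FPKM (0.44 ± 0.14 SE with an adjusted p of 0.477). Of the cell type markers, 3 of 11 cardiomyocyte markers were called higher in recovery, those at 0 in every control, and 5 of 11 passed an unadjusted 0.05, as did 3 of 10 fibroblast, 3 of 15 leukocyte, 2 of 9 smooth muscle and pericyte and 1 of 4 atrial markers. Their part in these values was not tested.

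Whether the 4 recovery weeks differed from each other was tested by an F test in the same model. No gene of the 31 and 0% of all genes passed, while 7 of the 31 and 6.67% of all genes had an unadjusted p under 0.05. The smallest p of the 31 was that of Cdkn1a (F = 15.54, unadjusted p = 2.05e-05, adjusted p = 0.0694). It was the 1 gene of the 31 that passed in a fit without both HF week 3 libraries and in a fit of these 4 weeks alone. The share of all genes that passed in those fits was not counted, and the 0% above belongs to the main fit. Cdkn1a measured 14.0 and 10.1 FPKM (week 7), 35.6 and 27.9 (week 9), 65.5, 55.3 and 59.5 (week 11) and 20.5 and 19.3 (week 13). Both libraries of week 7 and both of week 13 lay below every control, and the 3 of week 11 lay above every control.

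Cdkn1a had the widest range in FPKM of the 3 CDK inhibitors, from 10.1 to 111 FPKM over the 24 libraries. By mean level its groups ran from Recovery week 7 at 12.1 ± 2.80 (SD, n = 2) through Recovery week 13 at 19.9 ± 0.834 (SD, n = 2), Control week 19 at 31.4 ± 6.12 (SD, n = 5), Recovery week 9 at 31.8 ± 5.40 (SD, n = 2), Recovery week 19 at 38.8 ± 5.42 (SD, n = 5), HF week 5 at 42.5 ± 29.8 (SD, n = 3) and Recovery week 11 at 60.1 ± 5.12 (SD, n = 3) to HF week 3 at 86.0 ± 35.9 (SD, n = 2) FPKM. From Control week 19 upwards each group overlapped the next in this order, while Recovery weeks 7 and 13 overlapped neither each other nor the controls. Cdkn1c varied less, from 16.4 to 50.1 FPKM. Cdkn2a, whose locus encodes the CDK inhibitor p16 and the p53 regulator ARF, averaged 0.708 FPKM and measured 0.836, 1.15 and 2.52 FPKM at week 11, 0.813 and 1.78 FPKM at week 13 and 0.469 to 1.19 FPKM at Recovery week 19, against 0.28 to 0.834 FPKM in the controls. It was called in none of the comparisons.

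**Figure D5:**
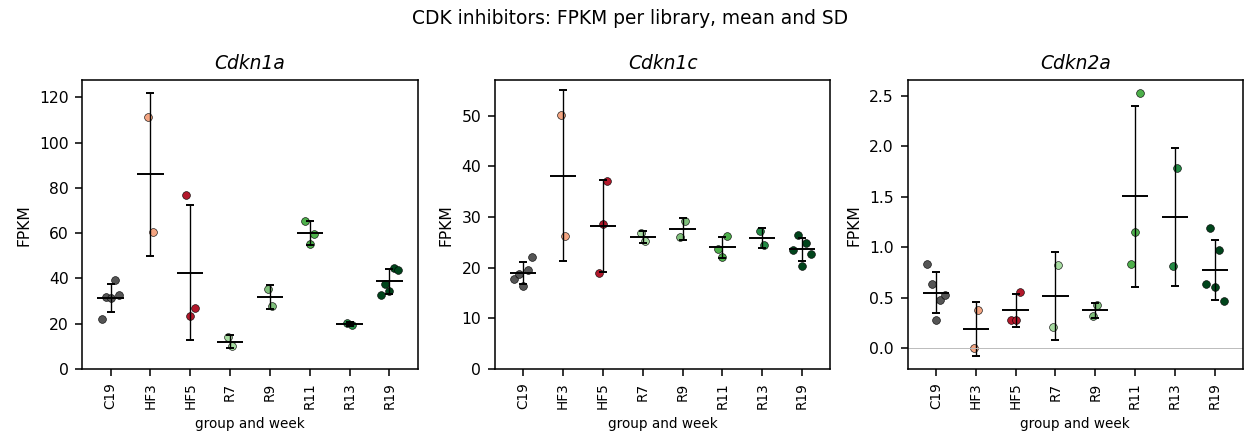
Points show the FPKM of the CDK inhibitor genes Cdkn1a, Cdkn1c and Cdkn2a in each library by group and week, with the group mean and SD. Cdkn1a is highest at HF week 3 and lowest at Recovery week 7, and its 3 libraries of week 11 lie between 55.3 and 65.5 FPKM.

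At the end of recovery, 2 of the 31 genes were called between HF week 5 and Recovery week 19, against 24.2% of all genes tested, and 7 passed an unadjusted 0.05, as did 36.8% of all genes. Ccnd2 measured 10.4, 8.10, 8.03, 7.89 and 6.99 FPKM at Recovery week 19, above all 3 HF week 5 libraries (0.72 ± 0.15 SE with an adjusted p of 0.00272). Pcna measured 30.5, 39.3, 24.6, 29.4 and 30.04 FPKM, of which library 3 lay within the range of HF week 5 (0.45 ± 0.13 SE with an adjusted p of 0.0179). The call of Ccnd2 held whichever library was left out, while that of Pcna was lost without HF week 5 library 1 or 2 (both 0.39). Called lower at Recovery week 19 were 2 of 15 leukocyte, 4 of 10 fibroblast, 5 of 10 endothelial, 6 of 9 smooth muscle and pericyte, 1 of 11 cardiomyocyte and 4 of 4 atrial markers, and 2 smooth muscle and pericyte and 2 cardiomyocyte markers were higher. Without Recovery week 19 library 4 there were 4 calls, and without HF week 5 library 1 there was 1. Without both HF week 3 libraries there were 5, and a fit of only the groups compared called 1.

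Mcm2 (0.39 ± 0.14 SE with an adjusted p of 0.0574), Mcm6 (-0.48 ± 0.18 SE with an adjusted p of 0.0612) and Mcm7 (-0.42 ± 0.17 SE with an adjusted p of 0.0695) did not pass. The Recovery week 19 libraries measured 2.79, 2.27, 1.96, 1.73 and 2.20 FPKM for Mcm2, 2.53, 3.44, 2.72, 3.05 and 3.27 FPKM for Mcm6 and 4.28, 4.00, 4.45, 5.85 and 5.08 FPKM for Mcm7, and each of these ranges overlapped that of the controls.

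Recovery week 19 and Control week 19 were of the same age. None of the 31 genes was called between them by limma, against 0.0235% of all genes tested, and 2 passed an unadjusted 0.05, beside 2.88% of all genes. These were Ccnd1, at 15.5, 22.3, 17.5, 13.4 and 21.6 FPKM against 21.8, 23.0, 21.7, 20.9 and 31.0 FPKM (-0.39 ± 0.16, SE, unadjusted p = 0.0206), and Ccne1, at 0.472, 0.671, 0.496, 0.316 and 0.691 FPKM against 0.849, 0.752, 0.601, 0.883 and 0.815 FPKM (-0.32 ± 0.14, SE, unadjusted p = 0.0376). Both overlapped the controls. The groups of Cenpa did not overlap, at 11.9, 8.15, 10.2, 11.4 and 13.2 FPKM against 13.9, 14.8, 17.4, 14.2 and 18.5 FPKM, and it did not pass (-0.51 ± 0.47, SE, unadjusted p = 0.294). The spread in that model includes the value of 0 in HF week 3 library 1. Without both HF week 3 libraries none of the 31 genes was called in this comparison either. How many of all genes tested had groups without overlap was not counted. Of the cell type markers, 2 of 11 cardiomyocyte markers were called higher (Actc1 and Myl2, at 0 in every control), and 5 of 15 leukocyte and 3 of 10 fibroblast markers passed an unadjusted 0.05, all of them higher at Recovery week 19. Their part in these values was not tested. The median log2 fold change over the 31 genes was -0.13. The 5 mitotic cyclins and kinases tested had values from -0.40 (Ccna2) to -0.03 (Aurka), and the 3 CDK inhibitors from 0.27 (Cdkn2a) to 0.31 (Cdkn1a and Cdkn1c), none of them called.

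Other genes of the cycle were counted in 5 lists that hold none of the 44. Of 39 further S phase genes tested, 2 were called higher at HF week 5 than in Control week 19 and none lower (5.13%, where 24% of all genes tested were called), and 13 passed an unadjusted 0.05, as did 36.5% of all genes. These were Orc6, a subunit of the origin recognition complex (0.84 ± 0.26 SE with an adjusted p of 0.0239), and Pold3, a subunit of DNA polymerase delta (0.43 ± 0.15 SE with an adjusted p of 0.0439). Of 66 further G2 and mitosis genes, 20 had a level that allowed a test, of which none was called by limma and 2 had an unadjusted p under 0.05. Of 16 further genes of G1 and the RB and E2F families, 1 was called higher and 5 lower (37.5%, against the same 24%). The 3 with the smallest p were Tfdp1, the dimer partner of E2F factors (-0.80 ± 0.16 SE with an adjusted p of 0.00177), Ccnd3, cyclin D3 (-0.54 ± 0.11 SE with an adjusted p of 0.00225), and Rbl2, the RB relative p130 (-0.61 ± 0.17 SE with an adjusted p of 0.0119). Their mean levels were 3.66 against 6.83 FPKM for Tfdp1, 23.5 against 34.5 FPKM for Ccnd3 and 2.18 against 3.62 FPKM for Rbl2.

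None of 5 further CDK inhibitor genes was called at HF week 5 by limma, and none had an unadjusted p under 0.05. Of 17 further p53 target genes, 2 were called higher and 3 lower (29.4%), a share near the 24% of all genes. Plk2, a polo-like kinase (1.13 ± 0.21 SE with an adjusted p of 0.00113), and Phlda3, an inhibitor of Akt (0.71 ± 0.17 SE with an adjusted p of 0.00491), were higher, and Sesn1, a sestrin (-0.46 ± 0.11 SE with an adjusted p of 0.00649), was lower. Between HF week 5 and Recovery week 19, 4 of the 16 G1 genes were called (25%, against 24.2% of all genes), all higher in recovery, and Tfdp1 (0.97 ± 0.16), Ccnd3 (0.50 ± 0.11) and Rbl2 (0.74 ± 0.17) were among them. In that comparison 1 of 39 S phase genes was higher and 4 were lower (12.8%), 1 of 20 G2 and mitosis genes was lower (5%), 3 of 17 p53 targets were higher and 3 lower (35.3%), and none of the 5 CDK inhibitor genes was called by limma or had an unadjusted p under 0.05. Both comparisons share the HF week 5 libraries. At HF week 3 (with library 1, which stood apart) against Control week 19, where 50.7% of all genes were called, 5 of the 39 S phase genes were higher and 11 lower (41%), 5 of the 20 G2 and mitosis genes higher and 2 lower (35%), 4 of the 16 G1 genes higher and 5 lower (56.2%), 7 of the 17 p53 targets higher and 3 lower (58.8%), and 1 of the 5 CDK inhibitor genes higher (20%). Between HF week 5 and HF week 3, where 21.4% of all genes were called, 8 S phase genes were higher at week 5 and none lower (20.5%), 1 G2 and mitosis gene higher and 2 lower (15%), 2 G1 genes higher and 1 lower (18.8%), and 2 p53 targets lower (11.8%). Between Recovery weeks 7 to 13 and HF week 5, where 22.1% were called, 3 S phase genes were higher in recovery and 1 lower (10.3%), 1 G2 and mitosis gene lower (5%), 5 G1 genes higher (31.2%), and 3 p53 targets higher and 3 lower (35.3%). Between Recovery week 19 and Control week 19 no gene of the 5 lists was called by limma or had an unadjusted p under 0.05.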

How the data were processed

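Paired-end RNA sequencing reads from mouse ventricle were aligned by the authors with TopHat2 to the mouse genome MGSCv37 (mm9), and the authors computed FPKM per gene with Cuffdiff. The deposited table holds these FPKM values for 29955 genes by symbol. Gene annotation, strand use and scaling between libraries are not given in the sources used here. Of its columns, 24 were matched to labelled groups. Another 5 columns of single samples were not used, since 4 samples carry the label they point to. Recovery week 9 has 3 labelled samples and 2 columns.

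The 12759 genes that averaged 0.5 FPKM or more were tested with limma 3.58.1 in R 4.3.3 on log2(FPKM + 0.5), with 1 mean per group in a single model (16 residual degrees of freedom), a mean-variance trend and two-sided moderated tests. A gene was called at a Benjamini-Hochberg adjusted p under 0.05 over all genes tested. Fold changes are on the log2(FPKM + 0.5) scale and understate those of low genes. The model stands in for the Cuffdiff test of the study's methods, which needs reads. It was tested on simulated data.

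The genes and lists were chosen with earlier results of these data known. All 44 genes are named with values. Statistics are given where a gene was called (at most the 10 smallest p per comparison), for the other pathway genes only for the 3 smallest p per list at HF week 5 where called, and beyond that for genes named after their values were seen. Pathway lists held 164 genes, of which 163 were in the table, and 7 lists of marker genes were summed. Sums and shares without genes listed at 0 were added after the values were seen. Promoter sequences are from RefSeq (GRCm38.p6), matched by symbol, and exon overlaps are from a GRCm38 annotation by gene name. Beside those given above, opposite-strand genes share exon bases of Ccne2 (10.5%, Ints8), Ccna2 (10.4%, Exosc9), Plk1 (7.09%), Ccnd2 (5.54%), Nusap1 (4.25%, Oip5) and Cdc20 (2.96%, Elovl1). Exosc9 averaged 6.86 FPKM and Elovl1 13.7 FPKM. Alternatives were other pseudocounts and filters, median centring, quantile normalization, only the groups compared, unadjusted p, each library left out, and, chosen after seeing the data, both HF week 3 libraries left out and the F test among recovery weeks. Figures were drawn with matplotlib 3.10.9.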

Additional observations from a re-analysis of the deposited data

Results flagged for a closer look

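In groups of 5 libraries, 9 of 88 sets of values had a library far from the others by Dixon's 95% limit, which chance alone passes in about 1 set in 20. Of these, 6 were in Control week 19 library 5. Mki67 measured 0.541 FPKM there, against 0.198 FPKM in the next control, Top2a 0.927 against 0.553 FPKM, and Mcm6 4.42 against 2.73 FPKM. Ccnd1 measured 31.0 against 23.0 FPKM, Ccna2 2.49 against 1.56 FPKM, and Tpx2 0.695 against 0.397 FPKM in the same library. Aurka measured 1.39 FPKM in Control library 3, against 0.672 FPKM in the next. In Recovery week 19 library 5, Nusap1 measured 0.565 against 0.272 FPKM and Cdc20 2.11 against 1.48 FPKM. The leukocyte marker sum was 507 FPKM in Control library 5, the highest of the controls, and 757 FPKM in Recovery week 19 library 5, the highest of that group, and its part in these values was not tested.

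Between HF week 5 and HF week 3, 8 of the 31 genes differed by the direct test of these groups (25.8%, beside 21.4% of all genes tested), and a fit of only these groups called none. The log2 differences (week 5 minus week 3) were -0.96 for Ccne1, -0.85 for Ccnd1, -1.28 for Cdk1, -1.35 for Cdca8, -1.15 for Cdkn1a and -0.67 for Mcm6, and 2.91 for Cenpa and 0.85 for Cenpf. None was called without HF week 3 library 1, in which Cenpa and Cenpf were listed at 0.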

How the results depend on the processing

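The counts of the 31 cell cycle genes called moved more than the directions. The main counts were 7 for HF week 5 and 14 for HF week 3 against Control week 19, 8 for HF week 5 against HF week 3, 2 for Recovery week 19 against HF week 5, 7 for Recovery weeks 7 to 13 against HF week 5, and 0 for the other 3 tests. With a pseudocount of 0.1, 4 were called in Recovery weeks 7 to 13 against HF week 5. With no filter 4 were called there and 4 at HF week 5 against control, over more genes tested, and with a mean of at least 1 FPKM 4 were called between the HF weeks, where fewer of the genes remained. With a fit of only the groups compared, 4 were called at HF week 5 and 8 at HF week 3 against control, 0 between the HF weeks (11 at an unadjusted p in the fit of all groups), 1 for Recovery week 19 against HF week 5, 1 for Recovery weeks 7 to 13 against control and 1 among the recovery weeks. Those fits hold fewer libraries. At an unadjusted p, 7 passed for Recovery week 19 against HF week 5, 2 for Recovery week 19 and 3 for Recovery weeks 7 to 13 against control, and 7 among the recovery weeks. Without both HF week 3 libraries, 5 were called for Recovery week 19 against HF week 5 and 1 among the recovery weeks, and the cause was not tested. Median centring, quantile normalization and a pseudocount of 1 kept each count within 1.5 times. In the refits given here and in those with 1 library left out, the share of all genes called was not counted. A count that moved in them can therefore not be read as a result about these genes alone.

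With 1 library left out, the counts ran from 1 to 7 for HF week 5 and from 3 to 19 for HF week 3 against control, from 0 to 16 between the HF weeks, from 1 to 4 for Recovery week 19 and from 3 to 6 for Recovery weeks 7 to 13 against HF week 5, and stayed at 0 in the other 3. The direction of 1 called gene turned, that of Cdc20 at HF week 3 against control, which ran from -2.27 to 0.22 on the log2 scale. Mcm6, Pcna and Cenpf at HF week 3 against control, Ccnd2 at Recovery week 19 against HF week 5, and Ccnd2 and Pcna in Recovery weeks 7 to 13 against HF week 5 passed in every setting that was run for them. No paired analysis was possible because the numbers of the columns are not tied to the letters in the sample titles. The alternatives with Control week 5 were not run, since its columns could not be matched to its samples. Absolute depth is unknown, so that no interval for counting error can be given, and genes under 0.5 FPKM are the least certain.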
